A study of Mus musculus with 6 samples.

Results

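The genes described here are 7 matrix metalloproteinases (*Mmp2*, *Mmp3*, *Mmp9*, *Mmp11*, *Mmp13*, *Mmp14* and *Mmp16*) and 3 tissue inhibitors of metalloproteinases (*Timp1*, *Timp2* and *Timp3*). They were taken by symbol, 10 of the 41388 genes counted in each library, and were chosen with earlier results of these data known. RNA-seq was done on primary joint chondrocytes from the femoral heads of 21-day-old male mice after 2 days of culture without treatment, with 3 *Postn*-/- and 3 *wt* libraries. Both genotypes were on the B6/129 background. The *Postn*-/- mice carried the constitutive tm1Jmol allele, which is not restricted to a tissue or a time, and by the study's methods came from heterozygous crosses with littermate controls. Each library is a bulk sample of cultured cells, so a level is an average over all cells in the dish. The labels number the libraries 1 to 3 within a genotype and name no mouse, so p-values measure the spread between these libraries.

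Matrix metalloproteinases (MMPs) are zinc-dependent endopeptidases that are made as inactive proenzymes and, once activated, cleave collagens, proteoglycans and other proteins around the cell. TIMPs bind the active site of MMPs and block it, and *Timp3* also inhibits the aggrecan-cleaving ADAMTS enzymes. In cartilage, *Mmp13* encodes the main collagenase for type II collagen and is a known product of hypertrophic chondrocytes, the enlarged cells that precede bone formation.

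No tested member passed the adjusted threshold between genotypes. By size of difference the genes fell into 3 kinds. *Mmp3*, stromelysin-1, was on average 2.76 times higher in *Postn*-/- libraries, at p values of 0.0125 unadjusted and 0.717 adjusted by Benjamini-Hochberg over all tested genes (quasi-likelihood test of edgeR). *Mmp13* ranged so widely within each genotype that its fold of 0.889 had an interval from 0.227 to 3.49. The other 7 tested members had log2 fold changes between −0.14 and 0.27 (adjusted p from 0.740 to 0.959), and *Mmp9* had at most 7 counts in any library. Of the 9 tested members, 0 passed an adjusted p of 0.05, where 0.0138% of all 14533 tested genes did. None did in any alternative, DESeq2 and limma included, where the lowest adjusted p of a member was 0.124 (*Mmp3*). At an unadjusted p of 0.05, 1 member passed (6.3% of all tested genes did). It was higher in *Postn*-/- (3.95% of all tested genes were) and 0 members were lower (2.35% were). In 0 of the 9 did the genotypes fail to overlap, against 13.6% of all tested genes (7.03% with *Postn*-/- higher). The median log2 fold change was 0.14 over the 9 members and 0.00 over all tested genes. In bulk samples, fewer cells of a type and less RNA per cell cannot be told apart.

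The total counts were between 20587640 and 26572260 per library. All 12 chondrocyte markers were tested and their summed level was 32994 to 44461 normalised CPM, the read count of a gene scaled by the library's total and its TMM factor, in *Postn*-/- and 27277 to 38723 in *wt*. 3 of the 12 (*Col2a1*, *Col11a2* and *Chad*) were higher in *Postn*-/- at an unadjusted p of 0.05 and 0 were lower, against 3.95% and 2.35% of all tested genes. *Postn* itself had 4.66, 4.27 and 5.67 CPM in *Postn*-/- libraries against 10.1, 10.3 and 6.90 CPM in *wt* libraries, a log2 difference of −0.91 (unadjusted p = 0.00362, adjusted p = 0.717, edgeR). Its gene-level count does not separate the altered exons from the others. *wt* replicate 1 stood apart from the other 5 libraries, with a score of 47.7 on the first principal component (31.9% of the variance) against −17.4 to −0.02.

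*Mmp13* and *Mmp3* lie in a cluster of 10 MMP genes on chromosome 9 of GRCm38, at chr9:7272514-7283333 and chr9:7445822-7455972, both on the plus strand, with their starts 173.3 kb apart. Their promoters are shown because these are the members with the largest genotype difference and the widest spread, and *Timp3* is shown as the member with the highest level per kilobase. Each sequence is the 250 bases before the RefSeq transcript start (GRCm38.p6, plus strand) at chr9:7272264-7272513, chr9:7445572-7445821 and chr10:86300162-86300411. Capitals mark the AP-1 letters TGACTCA or TGAGTCA, which are the same word read on either strand, and the TATA letters TATAAA or TTTATA.
Mmp13: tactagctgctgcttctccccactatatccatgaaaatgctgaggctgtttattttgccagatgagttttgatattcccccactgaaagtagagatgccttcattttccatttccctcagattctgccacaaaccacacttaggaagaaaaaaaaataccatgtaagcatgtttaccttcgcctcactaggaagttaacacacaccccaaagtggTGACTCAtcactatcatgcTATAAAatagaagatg
Mmp3: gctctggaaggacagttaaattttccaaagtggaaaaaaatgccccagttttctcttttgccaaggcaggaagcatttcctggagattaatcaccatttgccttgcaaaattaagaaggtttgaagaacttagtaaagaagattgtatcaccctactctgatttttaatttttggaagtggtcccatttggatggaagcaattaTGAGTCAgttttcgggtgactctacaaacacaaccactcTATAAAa
Timp3: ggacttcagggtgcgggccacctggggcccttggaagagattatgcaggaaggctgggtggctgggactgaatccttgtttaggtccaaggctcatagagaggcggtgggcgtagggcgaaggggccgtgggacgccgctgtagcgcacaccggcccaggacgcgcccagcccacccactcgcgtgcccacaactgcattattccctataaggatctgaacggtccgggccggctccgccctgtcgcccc
Both letters were found in *Mmp13*, with AP-1 starting 35 and TATA 16 bases before the start, and in *Mmp3*, at 46 and 7 bases, with no overlap between the matches. Neither was found in the *Timp3* window. AP-1 letters were in 4.46% of the 32851 promoter windows searched on both strands, TATA letters in 12.4% and both in 0.721%. Of the 7 members with a promoter entry, *Mmp13* and *Mmp3* were the 2 with AP-1 and the same 2 had TATA. Both were also found before *Mmp1a*, *Mmp1b*, *Mmp7* and *Mmp10*, which makes 6 of the 10 genes of the chromosome 9 cluster, although these 4 had at most 1.55 CPM in any library. RUNX letters (TGTGGT or ACCACA, in 14.0% of windows) were in *Mmp13*, 118 bases before the start, and in *Mmp14*, at 114. GC-box letters (GGGCGG or CCGCCC, in 32.7%) were in *Mmp11*, *Mmp14*, *Timp1*, *Timp2* and *Timp3*. Such matches describe letters only.

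Levels were compared between genes as normalised CPM per kilobase of exon. *Timp3* had the highest mean over the 6 libraries (1661), followed by *Mmp13* (751) and *Timp1* (679). *Mmp3* (39.9), *Timp2* (38.9) and *Mmp2* (31.0) came next, then *Mmp14* (7.45), *Mmp11* (3.40), *Mmp16* (2.62) and *Mmp9* (0.0373). The steps from *Timp1* to *Mmp3*, *Mmp2* to *Mmp14*, *Mmp14* to *Mmp11* and *Mmp16* to *Mmp9* were wider than the spread, with no overlap between the ranges. Neighbours within the groups were not separated. *Timp3* was above *Mmp13* in 4 of 6 libraries, *Mmp13* above *Timp1* in 2 of 6 and *Mmp3* above *Timp2* in 3 of 6, and *Mmp11* was above *Mmp16* in 6 of 6 with overlapping ranges.

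**Figure D1:**
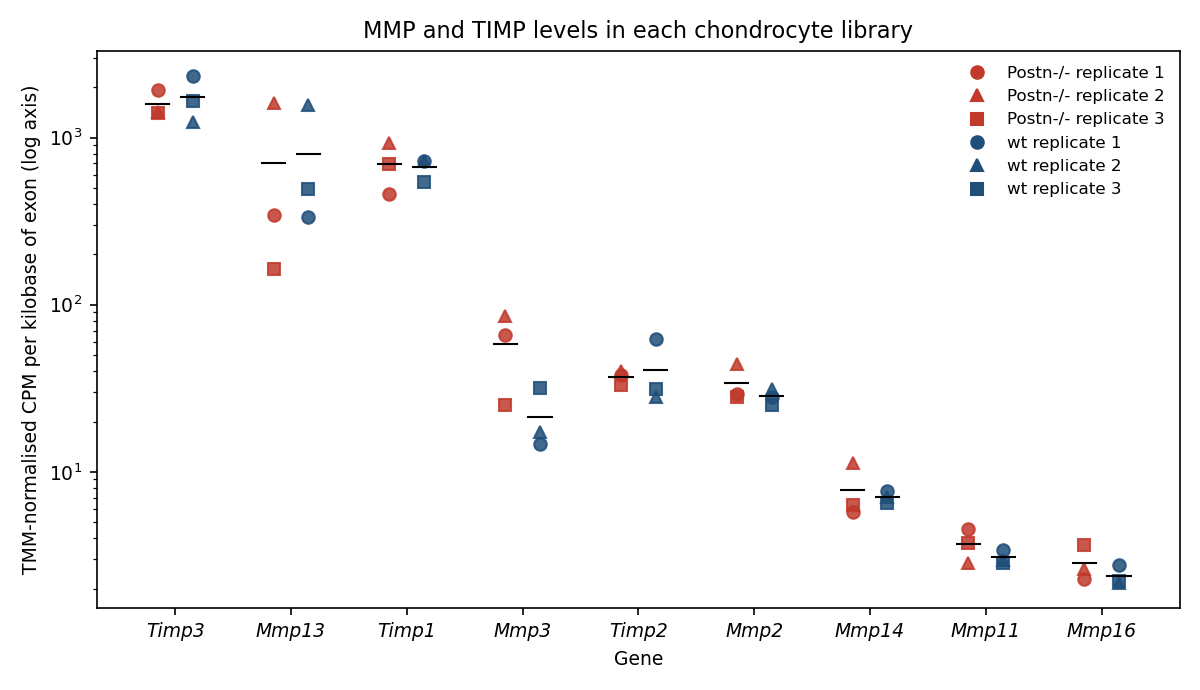
Normalised CPM per kilobase of exon (log axis) of the 9 tested members in each library, ordered by mean level. Points are libraries (red *Postn*-/-, blue *wt*, shape by replicate number) and black lines are genotype means. *Mmp9*, with 0 counts in 1 library, is not drawn. *Mmp13* reaches its highest values in the libraries numbered 2 of both genotypes, and on the log axis the genotype means of *Mmp3* lie farthest apart.

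*Mmp13* is the secreted collagenase of the group. In the order of replicates 1, 2 and 3 used throughout, it had 922, 4309 and 439 CPM in *Postn*-/- libraries against 897, 4163 and 1319 CPM in *wt* libraries. The library numbered 2 was the highest in both genotypes and the lowest library of all was *Postn*-/- replicate 3, and the *wt* range lay inside the *Postn*-/- range. The highest level was 9.81 times the lowest among *Postn*-/- libraries and 4.64 times among *wt* libraries. These values rest on 9216 to 105937 counts per library, so counting error is small beside them. Mean and SD over 3 libraries were 1889.9 ± 2109 CPM for *Postn*-/- and 2126 ± 1776 for *wt*. The log2 fold change came to −0.17 (standard error 0.85, interval from −2.14 to 1.80, adjusted p = 0.966, edgeR). The sign depended on single libraries. It was −1.64 without *Postn*-/- replicate 2 (unadjusted p = 0.0447), 0.16 without *Postn*-/- replicate 1, 0.30 without *Postn*-/- replicate 3 and 0.77 without *wt* replicate 2 (unadjusted p = 0.399). With both libraries numbered 2 left out it was −0.70 (unadjusted p = 0.0931), an alternative chosen after the values were seen. Over all alternatives the adjusted p was 0.533 to 0.990.

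Known markers of the hypertrophic state were set beside *Mmp13* from a list of 7 genes. Their summed level was 4140 to 12610 CPM in *Postn*-/- and 3268 to 9863 CPM in *wt*, and 0 of 7 passed an unadjusted p of 0.05. By sign 2 were higher and 5 lower in *Postn*-/-, with a median log2 fold change of −0.23 against 0.0 over all tested genes. In 5 of the 7 (*Mef2c*, *Runx2*, *Ibsp*, *Spp1* and *Alpl*) the library numbered 2 was the highest of both genotypes, as for *Mmp13*. The same held for 15.6% of all tested genes. *Spp1*, osteopontin, had 1681, 9107 and 2689 CPM in *Postn*-/- libraries against 2326, 5250.2 and 1680.1 CPM in *wt* libraries. *Alpl*, alkaline phosphatase, had 729, 1191 and 573 CPM in *Postn*-/- libraries against 465, 2294 and 967 CPM in *wt* libraries. *Col10a1*, the collagen that defines hypertrophic cartilage, did not share the pattern in *wt*, at 213, 1076 and 1185 CPM, and was at 1177, 1610 and 1392 CPM in *Postn*-/-. Osteoblast markers, 4 of 5 tested, summed to 145 to 193 CPM in *Postn*-/- and 137 to 178 in *wt*, and their sum was highest in *Postn*-/- replicate 3 and *wt* replicate 2. Of the 5, *Sp7* and *Phex* were highest in the library numbered 2 of both genotypes and the other 3 were not. The part of the cells' state in the *Mmp13* spread was not tested.

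**Figure D2:**
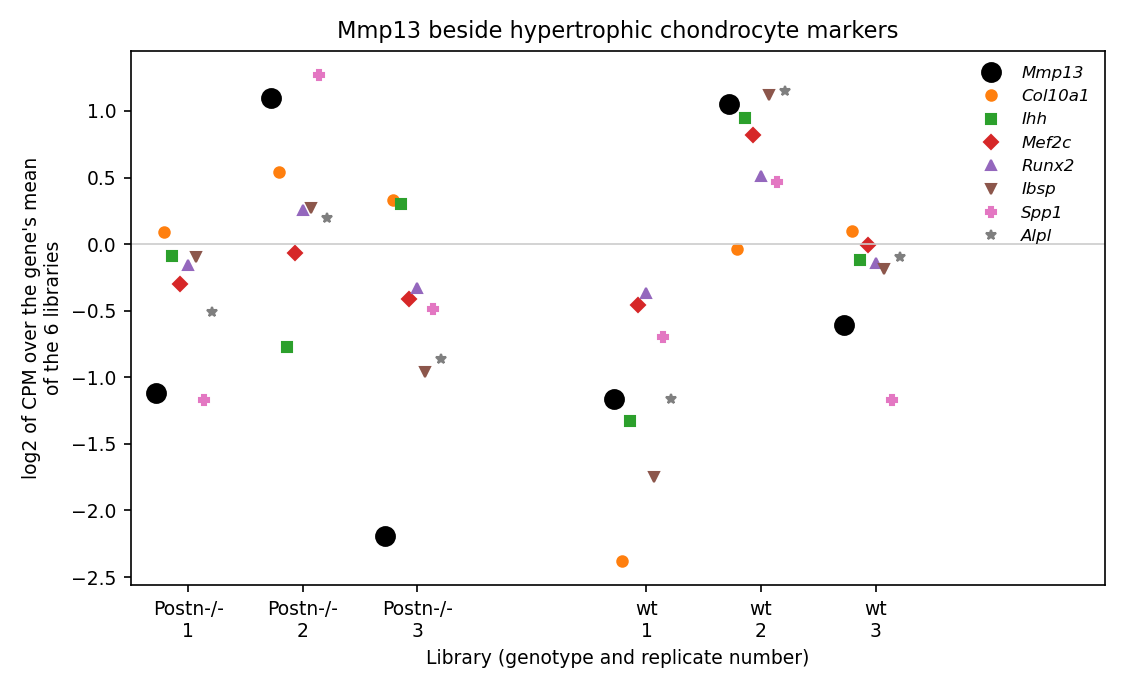
Log2 of each gene's CPM over its mean of the 6 libraries, for *Mmp13* (large black points) and 7 hypertrophic chondrocyte markers, by library. *Mmp13* is at 1.10 and 1.05 in the libraries numbered 2 and between −2.19 and −0.61 in the other 4, while *Ihh* in *Postn*-/- replicate 2 is the lowest of its genotype.

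*Mmp3*, stromelysin-1, cleaves proteoglycans and other matrix proteins and can activate other pro-MMPs, including the collagenases. It had 118, 153 and 44.9 CPM in *Postn*-/- libraries against 26.4, 31.1 and 57.3 CPM in *wt* libraries, from 686 to 3770 counts per library. *Postn*-/- replicates 1 and 2 were above every *wt* library and *Postn*-/- replicate 3 was below *wt* replicate 3, so the genotypes overlapped by that pair. Mean and SD were 105 ± 55.2 CPM for *Postn*-/- and 38.3 ± 16.7 for *wt*. The log2 fold change came to 1.46 (standard error 0.45, interval from 0.41 to 2.51), a fold of 2.76 with an interval from 1.33 to 5.70. It stayed positive with each library left out in turn, from 1.09 to 1.87, with unadjusted p from 0.000858 to 0.0439. The unadjusted call was lost in 2 alternatives, at 0.88 with limma's voomWithQualityWeights (unadjusted p = 0.104) and at 0.97 without both libraries numbered 2 (unadjusted p = 0.0963). The adjusted p was 0.124 to 0.983 over all alternatives, so no setting called the gene after adjustment. As a ratio of levels per kilobase, *Mmp13* over *Mmp3* was 5.27, 18.9 and 6.57 in *Postn*-/- and 22.9, 89.9 and 15.5 in *wt*.

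**Figure D3:**
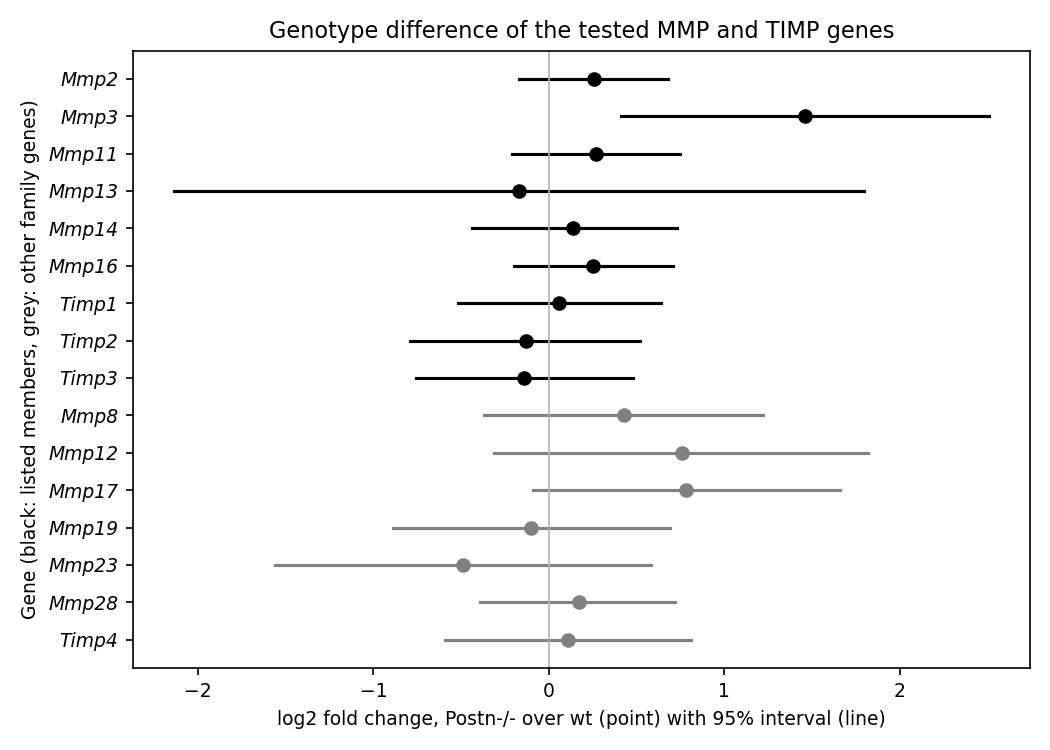
Log2 fold change of *Postn*-/- over *wt* (points) with 95% interval (lines) for the 9 tested members (black) and 7 other tested genes of the family (grey), from edgeR. The interval of *Mmp3* (0.41 to 2.51) lies above 0, and that of *Mmp13* (−2.14 to 1.80) is the widest.

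Among the gelatinases, *Mmp2* (chr8:92827328-92853417) cleaves denatured collagen and is ordinarily expressed by mesenchymal cells. It had 88.9, 133 and 85.6 CPM in *Postn*-/- libraries against 85.7, 95.1 and 76.7 CPM in *wt* libraries. *Postn*-/- replicate 2 alone was above all *wt* libraries. The log2 fold change came to 0.26 (standard error 0.18, interval from −0.17 to 0.68, unadjusted p = 0.198, edgeR) and it ran from 0.02 without *Postn*-/- replicate 2 to 0.37 without *Postn*-/- replicate 3. *Mmp9* (chr2:164940780-164955850), the gelatinase of osteoclasts and neutrophils, had 2, 4 and 0 counts in *Postn*-/- and 7, 3 and 3 in *wt*. A floor of 3 counts was 0.115 to 0.144 normalised CPM in these libraries. *Mmp9* was above it in *Postn*-/- replicate 2 and *wt* replicate 1 and at or below it in the other 4 libraries, and no fold is given. The osteoclast list, of which 4 of 8 genes were tested, summed to 351 to 461 CPM in *Postn*-/- and 319 to 420 in *wt*, nearly all from *Ctsk*, which had 435, 321 and 411 CPM in *Postn*-/- libraries against 390, 294 and 373 CPM in *wt* libraries. *Acp5*, an enzyme that marks osteoclasts, had 10.6 to 25.2 CPM over the 6 libraries. Of the 7 neutrophil markers 0 were tested, and they summed to 1.49 to 3.53 CPM in *Postn*-/- and 1.27 to 2.94 in *wt*, with *S100a9* at 0 counts in 3 of the 6 libraries. Their part in the *Mmp9* counts was not tested.

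*Mmp14* and *Mmp16* encode membrane-anchored MMPs that can activate pro-Mmp2 at the cell surface, and *Mmp11* encodes stromelysin-3, which is activated inside the cell. *Mmp14* (chr14:54431604-54441258) had 14.9, 29.4 and 16.5 CPM in *Postn*-/- libraries against 19.9, 18.4 and 16.9 CPM in *wt* libraries. The *Postn*-/- libraries lay on both sides of the *wt* libraries, and the log2 fold change of 0.14 (interval from −0.44 to 0.73) became −0.23 without *Postn*-/- replicate 2. *Mmp16* (chr4:17852893-18119145) had 19.7, 22.7 and 31.6 CPM in *Postn*-/- libraries against 24.0, 18.9 and 19.2 CPM in *wt* libraries, with *Postn*-/- replicate 3 above all *wt* libraries. Its log2 fold change was 0.25 (interval from −0.20 to 0.71), and 0.03 without that library. *Mmp11* (chr10:75923222-75932502, minus strand) had 11.7, 7.32 and 9.67 CPM in *Postn*-/- libraries against 8.80, 7.60 and 7.33 CPM in *wt* libraries. Of its *Postn*-/- libraries, 2 were above every *wt* library and 1 was level with the lowest of them, and the log2 fold change was 0.27 (interval from −0.21 to 0.75), and 0.10 without *Postn*-/- replicate 1. The unadjusted p of these 3 genes was 0.592, 0.236 and 0.227 in the order given. In *Mmp11*, 5.6% of exon bases are shared with *Chchd10* on the opposite strand.

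Of the inhibitors, *Timp3* (chr10:86300372-86349506) binds to the matrix and took 0.995 to 1.86% of all counts in a library. It had 15569, 11555 and 11466 CPM in *Postn*-/- libraries against 18990.1, 10101 and 13502 CPM in *wt* libraries. *Timp1* (chrX:20870166-20874735), a secreted inhibitor, had 407, 827 and 613 CPM in *Postn*-/- libraries against 644, 646 and 482 CPM in *wt* libraries. *Timp2* (chr11:118301069-118355740, minus strand), which inhibits MMPs and also links pro-Mmp2 to Mmp14, had 147, 157 and 130 CPM in *Postn*-/- libraries against 243, 110 and 123 CPM in *wt* libraries. For *Timp2* and *Timp3* the highest library was *wt* replicate 1, and all 3 genes overlapped between genotypes. The log2 fold change was −0.14 for *Timp3* (interval from −0.76 to 0.48), 0.06 for *Timp1* (interval from −0.52 to 0.64) and −0.13 for *Timp2* (interval from −0.79 to 0.52), with unadjusted p of 0.611, 0.817 and 0.654 (edgeR). Without *wt* replicate 1, *Timp2* was at 0.32 (unadjusted p = 0.0383) and *Timp3* at 0.12, and without *Postn*-/- replicate 2 *Timp1* was at −0.21. *Timp1* was also at −0.07 without *wt* replicate 3. *Timp1* lies inside *Syn1* and *Timp3* inside *Syn3*, on the opposite strand, with 0 and 21.3% of their exon bases shared. Whether counting used strand is not given in the sources used here. By the study's methods only unambiguous reads were counted, so whether reads from such shared bases were counted cannot be told.

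The balance of the 2 families was described as the summed MMP level over the summed TIMP level per kilobase in each library. The ratio was 0.188, 0.735 and 0.108 in *Postn*-/- and 0.126, 0.810 and 0.252 in *wt*. It was highest in the libraries numbered 2 and overlapped between genotypes, with means of 0.344 ± 0.341 and 0.396 ± 0.364. The log2 of the ratio of these means was −0.20, and it ran from −1.42 without *Postn*-/- replicate 2 to 0.87 without *wt* replicate 2, and was also above 0 without *Postn*-/- replicate 1 (0.09) or 3 (0.22). *Mmp13* made up 76.3, 91.7 and 71.0% of the summed MMP level in *Postn*-/- and 85.5, 96.2 and 87.8% in *wt*, and the ratio ordered the libraries as the *Mmp13* level did, except that those numbered 2 changed places. Without *Mmp13* the summed MMP level was 107, 146 and 66.9 per kilobase in *Postn*-/- and 56.8, 60.9 and 68.7 in *wt*, where *Postn*-/- replicate 3 was the library within the *wt* range. Of this sum, *Mmp3* alone was 65.4, 85.3 and 25.0 per kilobase in *Postn*-/- and 14.7, 17.3 and 31.9 in *wt*. Divided by the summed TIMP level, the sum without *Mmp13* gave 0.0446, 0.0611 and 0.0314 in *Postn*-/- and 0.0182, 0.0305 and 0.0308 in *wt*. The genotypes did not overlap in this ratio per kilobase, and the nearest pair was *Postn*-/- replicate 3 (0.0314) and *wt* replicate 3 (0.0308). With CPM in place of levels per kilobase they did overlap, as *wt* replicate 2 came just above *Postn*-/- replicates 1 and 3. Of all tested genes 13.6% did not overlap, but no such share was computed for ratios of sums. *Timp3* made up 59.4 to 79.4% of the summed TIMP level in *Postn*-/- and 62.2 to 74.8% in *wt*, and *Timp1* most of the rest. *Mmp2* over *Timp2* was 0.773, 1.09 and 0.846 in *Postn*-/- and 0.452, 1.11 and 0.802 in *wt*, and *Mmp14* over *Timp2* was 0.152, 0.282 and 0.191 and 0.123, 0.252 and 0.207.

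The spread between replicates was itself wide for several members. The within-genotype SD of log2(CPM + 2) was 1.44 for *Mmp13* and 0.75 for *Mmp3*, at the 99.9th and 99.1st percentile of all tested genes, whose median was 0.17. *Timp2* (0.45), *Timp1* (0.40) and *Timp3* (0.37) were also at or above the 90th percentile, which makes 5 of the 9 members. *Mmp14* (0.35), *Mmp2* (0.27), *Mmp16* (0.26) and *Mmp11* (0.21) were below it. Among the 1000 genes nearest in level the percentile was 99.9 for *Mmp13*, 99.5 for *Mmp3*, 95.2 for *Timp2*, 89.1 for *Timp1*, 87.0 for *Timp3* and 53.5 for *Mmp11*, so 3 of the 9 members were at or above the 90th percentile by that measure.

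**Figure D4:**
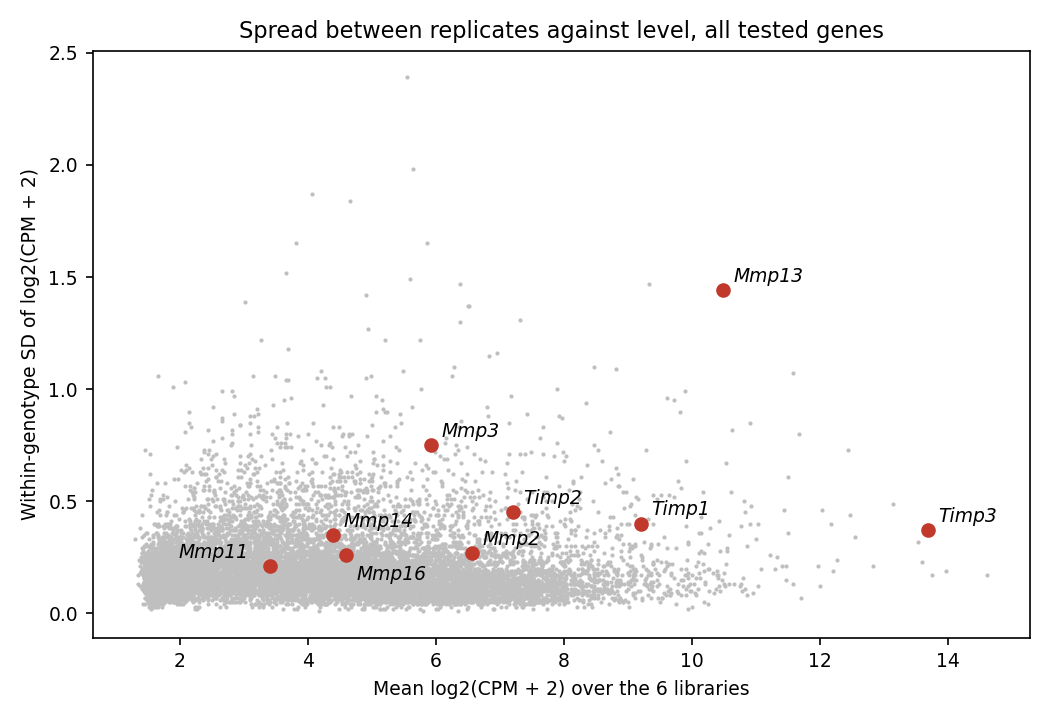
Within-genotype SD of log2(CPM + 2) against the mean of log2(CPM + 2) over the 6 libraries, for all 14533 tested genes (grey) and the 9 tested members (red). *Mmp13* (SD 1.44) and *Mmp3* (0.75) stand above most genes of like level, and *Mmp11* (0.21) lies among them.

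The other 17 genes of the family were mostly low. Of them 7 passed the filter, 5 higher and 2 lower in *Postn*-/- by sign, with 0 at an unadjusted p of 0.05 and adjusted p from 0.717 to 0.949. *Mmp17*, a membrane-anchored MMP, had 1.65, 2.73 and 1.67 CPM in *Postn*-/- libraries against 0.654, 1.45 and 1.44 CPM in *wt* libraries, the 1 of the 7 whose genotypes did not overlap, where 13.6% of all tested genes did not. Its log2 fold change was 0.78 (unadjusted p = 0.0725, edgeR), or 0.48 (unadjusted p = 0.190) without *wt* replicate 1, its lowest library. Without *Postn*-/- replicate 2, its highest library, it was 0.50 (unadjusted p = 0.255, edgeR), and without both libraries numbered 2 it was 0.69 (unadjusted p = 0.187, edgeR). It was 0.77 (unadjusted p = 0.0369) with limma and surrogate variables and 0.76 (unadjusted p = 0.0365) without a filter. *Mmp12*, the macrophage elastase, had 3.13, 1.26 and 1.43 CPM in *Postn*-/- libraries against 0.807, 0.905 and 1.77 CPM in *wt* libraries (0.76, unadjusted p = 0.140, edgeR). Its log2 fold change was 0.22 (unadjusted p = 0.609) without *Postn*-/- replicate 1, its highest library, and 1.18 (unadjusted p = 0.0476) without *wt* replicate 3. Macrophage and leukocyte markers, 6 of 8 tested and 0 called, summed to 39.1 to 60.4 CPM in *Postn*-/- and 22.8 to 40.5 in *wt*. By sign all 6 were higher in *Postn*-/-, with a median log2 fold change of 0.43 against 0.0 over all tested genes. The part of these markers' cells in the *Mmp12* values was not tested. *Mmp23* had 3.13, 8.50 and 2.72 CPM in *Postn*-/- libraries against 7.57, 8.42 and 4.22 CPM in *wt* libraries (−0.49, unadjusted p = 0.320, edgeR). Left out in turn, *Postn*-/- replicates 1, 2 and 3 gave −0.26, −1.20 and −0.21 (unadjusted p of 0.625, 0.00967 and 0.665). It was −0.73 (unadjusted p = 0.0428) with limma and surrogate variables and −1.01 (unadjusted p = 0.0252) without both libraries numbered 2. *Mmp8*, the neutrophil collagenase (0.43, or 0.14 without *wt* replicate 1), *Mmp28* (0.17), *Timp4* (0.11) and *Mmp19* (−0.10) had unadjusted p from 0.250 to 0.777, and 22.3% of the exon bases of *Mmp19* are shared with *Tmem198b* on the opposite strand. The 10 genes below the filter reached at most 1.55 CPM (*Mmp10* in *Postn*-/- replicate 2), and *Mmp1b*, *Mmp7* and *Mmp27* had at most 3 counts in any library. Of the 10 genes in the 427.1 kb cluster on chromosome 9, *Mmp13*, *Mmp12*, *Mmp3* and *Mmp8* were tested.

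**Figure D5:**
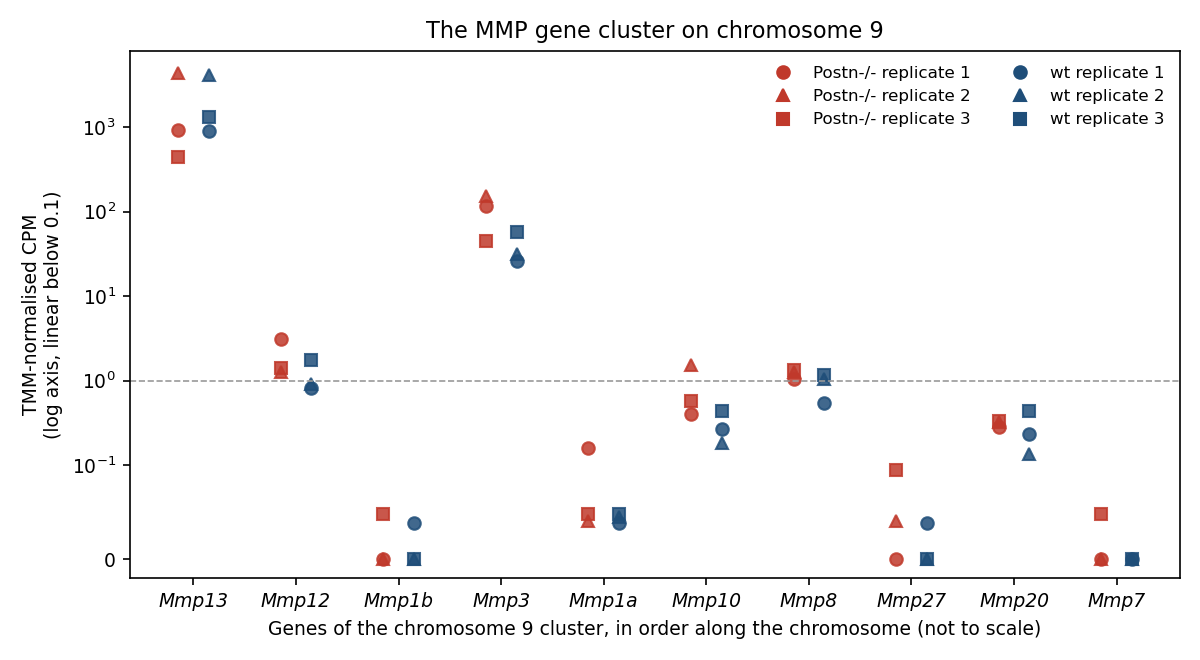
Normalised CPM (log axis, linear below 0.1) of the 10 MMP genes of the chromosome 9 cluster in each library, in their order along the chromosome, with a dashed line at 1 CPM. *Mmp13* (439 to 4309 CPM) and *Mmp3* (26.4 to 153 CPM) stand far above the other 8 genes, none of which exceeds 3.13 CPM.

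Of 20 genes that activate MMPs or restrain them, 18 were tested, 0 passed the adjusted threshold, 1 was higher at an unadjusted p of 0.05 and 0 were lower, with a median log2 fold change of 0.18. Of all tested genes 3.95% were higher and 2.35% lower at that threshold, and 13.6% did not overlap between genotypes, so the count of this list was near the background. That gene was *Pcsk5*, a proprotein convertase of the furin type, with 7.63, 7.40 and 5.72 CPM in *Postn*-/- libraries against 2.54, 4.39 and 4.89 CPM in *wt* libraries. The genotypes did not overlap, and the log2 fold change came to 0.82 (standard error 0.28, unadjusted p = 0.0183, edgeR), or 0.74 (unadjusted p = 0.0571) without *Postn*-/- replicate 1 and 0.86 (unadjusted p = 0.0533) without both libraries numbered 2. The next smallest unadjusted p in the list were of *Pcsk6*, another convertase (0.36, unadjusted p = 0.0761), *Serpine2*, a protease inhibitor (0.37, unadjusted p = 0.104), and *Thbs1*, thrombospondin-1 (−0.47, unadjusted p = 0.156). *Furin* was at 0.09.

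Of 26 regulators of MMP genes, 22 were tested, with 0 at the adjusted threshold, 1 higher and 0 lower at an unadjusted p of 0.05 and a median of 0.03, again near the background of 3.95% higher and 2.35% lower. *Junb*, a component of AP-1, had 9.48, 16.3 and 9.67 CPM in *Postn*-/- libraries against 3.11, 8.46 and 3.50 CPM in *wt* libraries, without overlap, as 13.6% of all tested genes were. The log2 fold change came to 1.24 (standard error 0.41, unadjusted p = 0.0172, adjusted p = 0.717, edgeR), and the call was lost without *Postn*-/- replicate 2 (0.93, unadjusted p = 0.0631) or *wt* replicate 3 (1.04, unadjusted p = 0.0656). Without *wt* replicate 2 it was 1.84. *Fosl1* and *Fos*, also of AP-1, were at 0.92 (unadjusted p = 0.0721) and 1.03 (unadjusted p = 0.136). *Runx2*, a factor of hypertrophic chondrocytes, was at −0.11, and *Ddr2*, a collagen receptor, at −0.13. The cytokine genes *Il1b* and *Tnf* had at most 3 counts in each library. *Junb* was 1 of 5 regulators that were highest in the libraries numbered 2 of both genotypes. So were 3 of the 9 tested members (*Mmp2*, *Mmp13* and *Timp1*), 3 of the 18 matrix substrate genes and 15.6% of all tested genes.

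All 18 matrix substrate genes were tested, with 0 at the adjusted threshold, 3 higher and 0 lower at an unadjusted p of 0.05 and a median of 0.17. The shares over all tested genes were 3.95% and 2.35%, with 13.6% not overlapping. *Col2a1*, the type II collagen that *Mmp13* cleaves, had 15767, 13696 and 18081 CPM in *Postn*-/- libraries against 8271, 11867 and 9567 CPM in *wt* libraries, without overlap (log2 fold change 0.68, unadjusted p = 0.0125, edgeR). Without *wt* replicate 3 it was 0.65 (unadjusted p = 0.0522). *Col4a1* and *Col4a2*, type IV collagen chains of basement membranes, were at 0.81 (unadjusted p = 0.0136) and 0.74 (unadjusted p = 0.0170), also without overlap, and each lost the unadjusted call without *Postn*-/- replicate 1 (0.65 and 0.61), *Col4a2* also without *wt* replicate 2 or 3 (0.61 in both cases).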

How the data were processed

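The authors deposited, per library, raw counts of 41388 genes with CPM and RPKM beside them. Per the labels and the study's methods, 50-base single-end reads were aligned with STAR 2.0.4b to Ensembl release 76. Reads that aligned uniquely and were unambiguous were counted with featureCounts 1.4.5. The labels' build field says mm9, but the files' coordinates are those of GRCm38. The deposited CPM (a count divided by its library's summed counts) and the deposited RPKM (per kilobase of exon as well) were only checked against the counts. Symbols came from GENCODE M21 (97.3% of identifiers matched).

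In R 4.3.3, edgeR 4.0.16 (TMM, quasi-likelihood test, no covariates, Benjamini-Hochberg adjustment) was fitted to the 14533 genes above 1 CPM in at least 2 libraries, with 355 rRNA genes left out. CPM in the text are TMM-normalised, intervals are 95% and log2 fold changes are *Postn*-/- over *wt*. The fit was tested on simulated counts. No library repeated another (chi-square per degree of freedom 26.5 to 81.3 over pairs), and 3 counts, the floor used, cover counting error only. Promoters are RefSeq windows.

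The alternatives were DESeq2 size factors, upper quartile normalization, DESeq2 1.42.0, voomWithQualityWeights in limma 3.58.1 alone or with 2 surrogate variables from sva 3.50.0, other filters, rRNA genes kept, a robust fit, the replicate block and each library left out. Members and gene lists were chosen with earlier results of these data known. All members are named, every tested family gene, and of other lists up to 4 genes with the smallest unadjusted p and those of p at most 0.05, and further pathway genes and cell type markers named in the text (*Furin*, *Runx2*, *Ddr2*, *Il1b*, *Tnf*, *Spp1*, *Alpl*, *Col10a1*, *Ihh*, *Mef2c*, *Ibsp*, *Sp7*, *Phex*, *Ctsk*, *Acp5*, *S100a9*) were chosen after their values were seen. Other marker lists, none called at the adjusted threshold, were endothelial (3 of 6 tested, 0 called), synovial or perichondrial fibroblast (7 of 8, 1 higher at an unadjusted p of 0.05, *Col14a1*) and erythroid (0 of 5 tested, *Hba-a2* at 0 in all libraries). By sign all 3 tested endothelial genes were higher in *Postn*-/-, with a median log2 fold change of 0.45.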

Additional observations from a re-analysis of the deposited data

How the results depend on the processing

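Among alternatives that kept all libraries, 88 of 90 member log2 fold changes kept their sign. With 1 library left out, 46 of 54 did. *Mmp14* became −0.22 and *Timp1* −0.14 without both libraries numbered 2 (chosen after the data were seen), and *Timp2* became 0.09 with voomWithQualityWeights and 0.02 with surrogate variables added. Leaving out each library gave −1.64 to 0.77 for *Mmp13*, −0.23 to 0.32 for *Mmp14*, −0.21 to 0.29 for *Timp1*, −0.34 to 0.32 for *Timp2*, −0.34 to 0.12 for *Timp3*, −0.31 to 0.20 for *Mmp19* and −0.02 to 0.32 for *Mmp28*. Genes past the adjusted threshold, 2 in the reported fit, were 1 with upper quartile normalization, 11 with DESeq2's Wald test, 1 with voomWithQualityWeights, 4 with surrogate variables, 9 without a filter, 0 with CPM above 1 in all 6 libraries (edgeR, 806 at an unadjusted p of 0.05), 1 without both libraries numbered 2 and 1 to 2 with each left out. Genes at the unadjusted threshold, 916, were 1997 with surrogate variables, 1797 without a filter and 425 to 1257 with each left out. Members at that threshold, 1, were 0 with voomWithQualityWeights, 0 without both libraries numbered 2 and 1 to 2 with each left out. The cause of these shifts was not tested. The labels and the study's methods tie equal replicate numbers to no litter, batch or day. Correlations of same-numbered deviations were 0.0824, 0.155 and 0.143, each the best of that library, and with the replicate block 1 gene passed the adjusted and 1188 the unadjusted threshold, with *Mmp3* at 1.42 (p = 0.0488, edgeR), *Mmp17* at 0.80 (p = 0.0394, edgeR) and *Mmp13* at −0.49 (p = 0.224, edgeR). *Mmp9* had 0 to 7 counts per library, around the floor of 3, and the 10 other family genes not tested were below the CPM filter.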
